A study of Mus musculus with 6 samples.

Results

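The genes described here are 10 genes of the endothelium, the cell layer that lines blood vessels, and of the endocardium, the layer that lines the heart chambers. They were taken as a list by Ensembl ID, with no measured value in the rule: Pecam1, Cdh5, Kdr, Flt1, Tek, Tie1, Eng, Notch1, Nfatc1 and Vegfa, out of 48505 genes in the deposited tables. The data were 6 sequencing libraries of RNA fragments pulled down with an antibody against N6-methyladenosine (m6A), a methyl mark on RNA, so a gene's level here is the amount of antibody-bound RNA (IP level) and depends on how much RNA there is as well as on how much of it is marked. All hearts came from wild-type FVB/NJ fetuses of both sexes, pooled, and were collected on gestational day 15. The dams were 10 weeks old, and a whole-body chamber was used. The nano-TiO2 exposure began on gestational day 5 and lasted 360 minutes on each of 6 days within 8 days, not all in a row. In 3 libraries (sham) the dams had breathed filtered air, and in 3 (nano-TiO2) an aerosol of engineered titanium dioxide nanoparticles at a target of 12 mg/m3. Nothing in the labels gives the litters behind each pool, and p-values below therefore cover the spread of these 6 samples alone.

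Endothelial cells hold one another through junction proteins such as PECAM1 and VE-cadherin, the product of Cdh5. They respond to the growth factor VEGF-A, the product of Vegfa, through the receptor kinases KDR and FLT1, and to angiopoietins through the receptor TEK and its relative TIE1. In the fetal heart, signalling through NOTCH1 and the transcription factor NFATc1 takes part in forming the valves from the endocardium, and endoglin (Eng) is a co-receptor for ligands of the BMP and TGF-beta family on vessel walls.

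Promoters are shown for the 3 receptor genes that rose most in IP level, Tek, Flt1 and Kdr, and for Tie1, the relative of Tek that did not. The genes were picked by these values, and a link between promoter and change was not tested. Flt1 and Kdr changed within the range of genes of like length, as given below. The sequences are the 250 bases upstream of the RefSeq transcription start on build GRCm38.p6, 5′ to 3′ on the gene's strand. Capitals mark GGAAG, or CTTCC, the same letters on the opposite strand. This string is longer than GGAA, the core of the sites that ETS transcription factors bind in many endothelial genes. The shorter GGAA and TTCC were not marked or counted, and the stretch of Tek holds TTCC. Tek lies on the plus strand (chr4:94739039-94739288), and Flt1 (chr5:147726012-147726261), Kdr (chr5:75978456-75978705) and Tie1 (chr4:118489850-118490099) lie on the minus strand.
Tek: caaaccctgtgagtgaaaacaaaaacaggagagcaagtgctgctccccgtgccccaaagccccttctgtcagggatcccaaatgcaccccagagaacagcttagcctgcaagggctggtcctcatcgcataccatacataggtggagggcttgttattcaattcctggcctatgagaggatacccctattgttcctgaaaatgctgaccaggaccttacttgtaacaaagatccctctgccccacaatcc
Flt1: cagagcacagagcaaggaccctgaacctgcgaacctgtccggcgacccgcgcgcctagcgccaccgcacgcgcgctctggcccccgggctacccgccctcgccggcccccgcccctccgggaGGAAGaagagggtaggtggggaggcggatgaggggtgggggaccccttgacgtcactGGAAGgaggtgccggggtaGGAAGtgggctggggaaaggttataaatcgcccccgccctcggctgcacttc
Kdr: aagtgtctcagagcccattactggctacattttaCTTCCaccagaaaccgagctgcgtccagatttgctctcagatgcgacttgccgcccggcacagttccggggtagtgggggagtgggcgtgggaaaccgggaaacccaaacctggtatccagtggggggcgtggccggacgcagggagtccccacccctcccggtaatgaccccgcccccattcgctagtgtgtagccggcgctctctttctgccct
Tie1: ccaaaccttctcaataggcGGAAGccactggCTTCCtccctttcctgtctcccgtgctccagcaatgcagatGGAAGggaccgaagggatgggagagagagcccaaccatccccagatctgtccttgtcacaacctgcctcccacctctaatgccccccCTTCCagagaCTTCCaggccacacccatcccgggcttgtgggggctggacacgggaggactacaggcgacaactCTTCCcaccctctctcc
The table of promoters, which is not complete, was used for 7 of the 10 genes, matched by symbol. It had no entry for Pecam1 and Cdh5, and Nfatc1 was left out by a rule on chromosomes. The letters occurred 0 times in this stretch of Tek, 3 times in Flt1, 1 time in Kdr and 6 times in Tie1. In the others matched there were 2 matches in Eng, 0 in Notch1 and 1 in each listed promoter of Vegfa. Of all 32851 promoters in the table, 64.1% held the letters in a stretch of the same length, 10.2% held them 3 or more times and 0.271% held them 6 or more times, so holding a match is common. A match is a string of letters in a window and not a shown site. The IP windows were not placed on this build.

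The libraries held 20205024 to 31523675 reads. The 4 most abundant genes of the series took 20.6% to 35.2% of reads in sham and 8.03% to 18.0% in nano-TiO2. Sham replicate 2 had the highest share and nano-TiO2 replicate 2 the lowest, and calls that change without either are given with and without it. The files do not pair Ensembl IDs with symbols and 0 IDs matched the RefSeq gene table at hand, so markers of cardiomyocytes, blood cells and other cell types, and the wider set of endothelial genes, were not analysed here. In pooled whole hearts, more or fewer endothelial cells and more or less RNA per cell cannot be told apart.

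All 10 genes had reads in every library, and their levels spanned a wide range. Compared per window (the deposited tables divide each gene into windows that start 25 nucleotides apart), Eng stood highest in both groups. Its IP level was 28.3 ± 3.53 normalized reads per window in sham against 26.1 ± 5.14 in nano-TiO2 (SD, n = 3), above 91.6% of the genes tested. Tie1 and Cdh5 followed in sham, at 10.7 ± 1.53 and 9.30 ± 0.930 (SD, n = 3), with library values that overlapped, and in nano-TiO2 they changed places, at 9.82 ± 2.63 and 12.4 ± 1.61, again with overlapping values. Pecam1 came next in both groups, at 4.59 ± 0.167 and 7.17 ± 0.359, and Kdr after it, at 2.32 ± 0.301 and 4.15 ± 0.566. In sham, Notch1, Tek and Nfatc1 lay together at 1.50 ± 0.344, 1.39 ± 0.154 and 1.38 ± 0.297, and their libraries overlapped. In nano-TiO2 Tek, at 3.46 ± 0.423, stood above Notch1 (1.88 ± 0.584) and Nfatc1 (1.99 ± 0.924), and its 3 libraries, at 3.20 to 3.95, were each above every library of these 2 genes. Vegfa and Flt1 were the lowest, at 0.616 ± 0.0114 and 0.605 ± 0.0471 in sham against 0.753 ± 0.146 and 1.41 ± 0.119 in nano-TiO2.

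**Figure D1:**
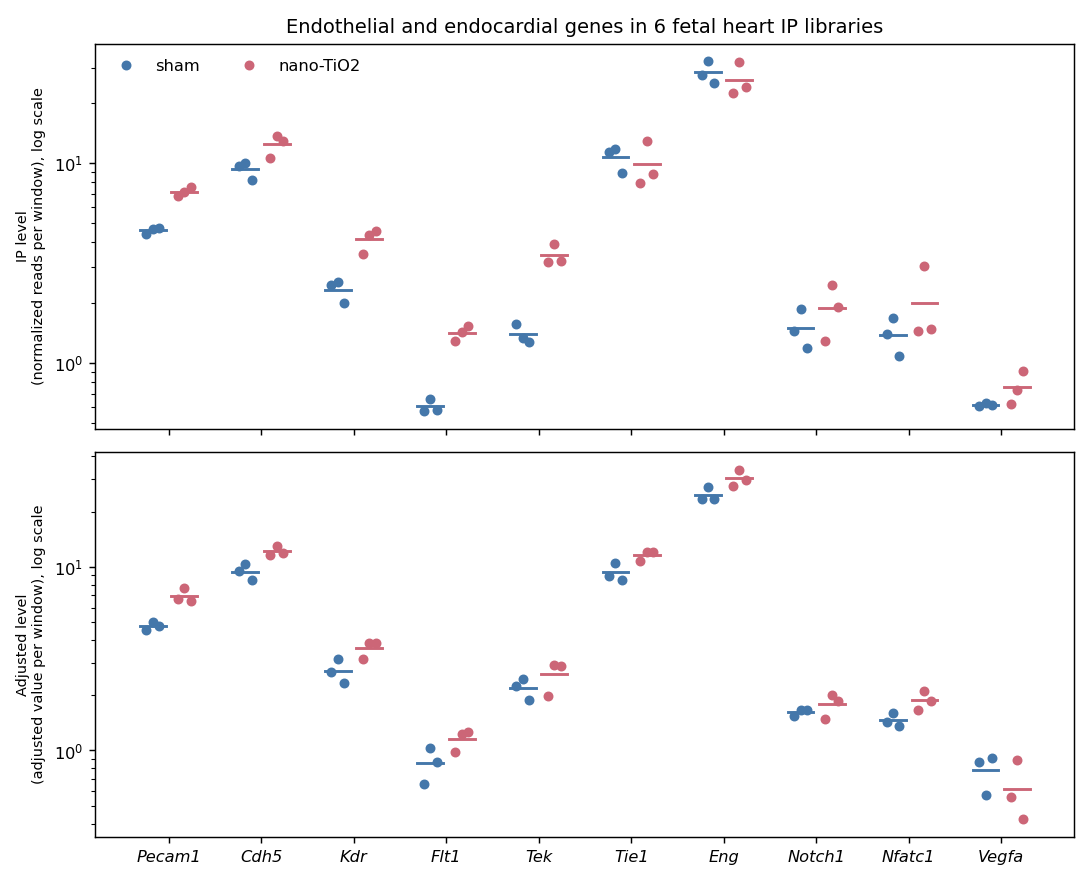
Level per window of each gene on a log axis, as IP level in normalized reads (top) and as the authors' adjusted value (bottom). Points are libraries and bars are group means of 3. In the top panel Pecam1, Cdh5, Kdr, Flt1 and Tek have every nano-TiO2 library above every sham library. In the bottom panel this holds for Pecam1, Cdh5, Kdr, Tie1, Eng and Nfatc1.

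The first comparison asked which of these genes differed in IP level between nano-TiO2 and sham hearts. Of the 10 genes, 4 rose (Tek, Flt1, Kdr and Pecam1) and 0 fell, at an adjusted p of 0.05 by limma, and 5 had an unadjusted p under 0.05 with a higher mean in nano-TiO2, as 29.4% of all genes did. On whole reads recovered from the values, edgeR called the same 4 (and 6724 genes in all) and DESeq2 called 5, with Cdh5 added (7077 in all). Over all 18566 genes tested, 36.0% were called, 24.0% as higher and 12.0% as lower in nano-TiO2. In Cdh5 as well the groups did not overlap but the test was not passed. Nano-TiO2 libraries were all above sham in 5 of the 10 genes, against 30.9% of all genes, and with the deposited scaling the log2 change was above 0 in 8 of 10, against 56.4%. The median log2 change was 0.43 over the 10 genes and 0.13 over all genes.

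Tek (ENSMUSG00000006386), which encodes the angiopoietin receptor, had the largest change. Its normalized reads were 294, 251 and 239 in the sham libraries, in the order of their replicate numbers, against 601, 742 and 608 in the nano-TiO2 libraries. All values below keep that order. The groups did not overlap, and the lowest nano-TiO2 library stood well above the highest sham library. The mean went from 261 ± 29.0 to 651 ± 79.5 (SD, n = 3), a log2 change of 1.31 ± 0.16 SE and 2.48-fold (adjusted p = 0.00091, limma). Tie1 (ENSMUSG00000033191), its co-receptor, had 2234, 2307 and 1753 normalized reads in sham against 1547, 2513 and 1717 in nano-TiO2. These groups overlapped, with nano-TiO2 replicate 2 the highest of the 6 libraries and nano-TiO2 replicate 1 the lowest. The log2 change was -0.15 ± 0.20 SE (adjusted p = 0.62, limma).

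Both receptors of VEGF-A rose. Flt1 (ENSMUSG00000029648), which binds VEGF-A tightly and has soluble forms that hold it away from KDR, had 309, 356 and 315 normalized reads in sham against 696, 770 and 824 in nano-TiO2. Every nano-TiO2 library was far above every sham library. The mean went from 327 ± 25.4 to 764 ± 64.1 (SD, n = 3), a log2 change of 1.22 ± 0.15 SE and 2.33-fold (adjusted p = 0.00081, limma). Kdr (ENSMUSG00000062960), the main signalling receptor of VEGF-A on endothelium, had 879, 920 and 715 normalized reads in sham against 1266, 1573 and 1654 in nano-TiO2. Its groups did not overlap either, and the mean went from 838 ± 108 to 1498 ± 204 (SD, n = 3), a log2 change of 0.84 ± 0.16 SE and 1.79-fold (adjusted p = 0.0051, limma).

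The ligand gene was the least abundant in reads. Vegfa (ENSMUSG00000023951), which in the heart is made largely by cells other than the endothelium, had 103, 107 and 105 normalized reads in sham against 106, 125 and 155 in nano-TiO2. The sham libraries lay close together and nano-TiO2 replicate 1 fell among them, so the groups overlapped. Its log2 change was 0.27 ± 0.20 SE (adjusted p = 0.33, limma), and it rested on 78 to 193 reads per library.

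Of the 2 junction genes, Pecam1 (ENSMUSG00000020717), an adhesion molecule found at endothelial contacts, had 1096, 1161 and 1173 normalized reads in sham against 1698, 1783 and 1877 in nano-TiO2. The spread within each group was small beside the gap between them. The mean went from 1143 ± 41.7 to 1786 ± 89.5 (SD, n = 3), a log2 change of 0.64 ± 0.13 SE and 1.56-fold (adjusted p = 0.0050, limma). Cdh5 (ENSMUSG00000031871), which encodes the cadherin of endothelial junctions, had 1617, 1682 and 1385 normalized reads in sham against 1774, 2290 and 2170 in nano-TiO2. The groups did not overlap, though nano-TiO2 replicate 1 lay close to sham replicate 2. The log2 change of 0.41 ± 0.15 SE was not called (adjusted p = 0.066, limma). It was called without nano-TiO2 replicate 1 (0.52, adjusted p = 0.041, limma), and over its 18 alternatives the adjusted p ran from 0.0030 to 0.37.

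Eng (ENSMUSG00000026814), the co-receptor, had 4445, 5181 and 4064 normalized reads in sham against 3599, 5143 and 3858 in nano-TiO2. The groups overlapped, with replicate 2 the highest library in each, and the log2 change was -0.13 ± 0.17 SE (adjusted p = 0.59, limma). Notch1 (ENSMUSG00000026923), the receptor that acts in valve and chamber formation, had 819, 1061 and 674 normalized reads in sham against 729, 1393 and 1082 in nano-TiO2. Its groups overlapped as well (log2 change 0.30 ± 0.26 SE, adjusted p = 0.39, limma), and the change was 0.085 without nano-TiO2 replicate 2, 0.55 without nano-TiO2 replicate 1 and 0.47 without sham replicate 2. Nfatc1 (ENSMUSG00000033016), a transcription factor that marks the endocardium at this stage, had 413, 497 and 320 normalized reads in sham against 427, 911 and 441 in nano-TiO2. Only nano-TiO2 replicate 2 stood apart from the sham range with a large gap to it, and the log2 change was 0.46 ± 0.30 SE (adjusted p = 0.26, limma). Without that library the change of Nfatc1 was 0.11, and without any other single library it was 0.30 to 0.65. The changes of Tie1 and Eng, both not called, were -0.35 and -0.29 without nano-TiO2 replicate 2. Leaving out sham replicate 2 instead gave -0.072 and -0.035.

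The libraries can be scaled to one another in several ways, and the median change of all genes moved with the choice. That median was 0.13 on the log2 scale with the deposited scaling, 0.06 with TMM scaling, -0.05 after quantile normalization, 0.61 when library totals were made equal and 0.39 when this was done leaving aside the 4 most abundant genes. Rises made up, over all genes called, 66.7%, 60.0%, 52.4%, 97.9% and 86.2% in the same order. Relative to that median, Tek stood 1.13 to 1.19 higher over these 5 scalings, Flt1 1.08 to 1.10, Kdr 0.71 to 0.91 and Pecam1 0.52 to 0.77, and each of the 4 was called in all 5. All scalings but quantile normalization divide each library by 1 number, so changes relative to the median could hardly move among them. Quantile normalization, the 1 that could move them, gave 1.13 for Tek, 1.08 for Flt1, 0.91 for Kdr and 0.77 for Pecam1. Cdh5 was called as well after quantile normalization, where 16.6% of all genes were called as higher. With equal totals 8 of the 10 genes were called, all as higher, where 43.1% of all genes were. Tie1 and Eng changed sign: their log2 changes were 0.02 and 0.18 after quantile normalization and 0.35 and 0.37 with equal totals, and 0.13 and 0.14 when those 4 genes were left aside. Vegfa turned to -0.11 after quantile normalization. Relative to the median change of all genes Tie1 ran from -0.27 to 0.07, Eng from -0.26 to 0.23 and Vegfa from -0.06 to 0.15.

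Over all genes, the change in IP level was larger in genes with more windows, so the 10 genes are given beside others of like length. Kdr, Flt1, Notch1 and Nfatc1, with 361, 540, 569 and 298 windows, belong to the 20% of tested genes with the most windows (265 to 4927). In that group log2 changes had a median of 0.81 (interquartile range 0.31 to 1.24) and 55.5% of genes were called as higher. Kdr at 0.84 lay near that median and Flt1 at 1.22 near the upper quartile, while Notch1 at 0.30 and Nfatc1 at 0.46 lay below the median. Pecam1, Tek and Tie1, with 249, 188 and 196 windows, belong to the next 20% (171 to 265 windows), where the median was 0.34 (interquartile range -0.08 to 0.86) and 31.5% were called as higher. There Tek at 1.31 stood above the upper quartile, Pecam1 at 0.64 inside the range and Tie1 at -0.15 below the lower quartile. Cdh5, Eng and Vegfa, with 168, 161 and 171 windows, belong to the middle 20%, with a median of 0.11.

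With the trend over length removed from each library, Tek was the 1 gene of the 10 still called, at 1.00 (adjusted p = 0.0063, limma), where 24.2% of all genes were called and 11.4% as higher. Pecam1 was then at 0.15 (adjusted p = 0.37), Kdr at 0.10 (adjusted p = 0.62) and Flt1 at 0.25 (adjusted p = 0.18, limma). Notch1 turned to -0.70 (adjusted p = 0.062) and Nfatc1 to -0.15 (adjusted p = 0.70, limma). The part of length in these rises beyond this fit was not tested.

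**Figure D2:**
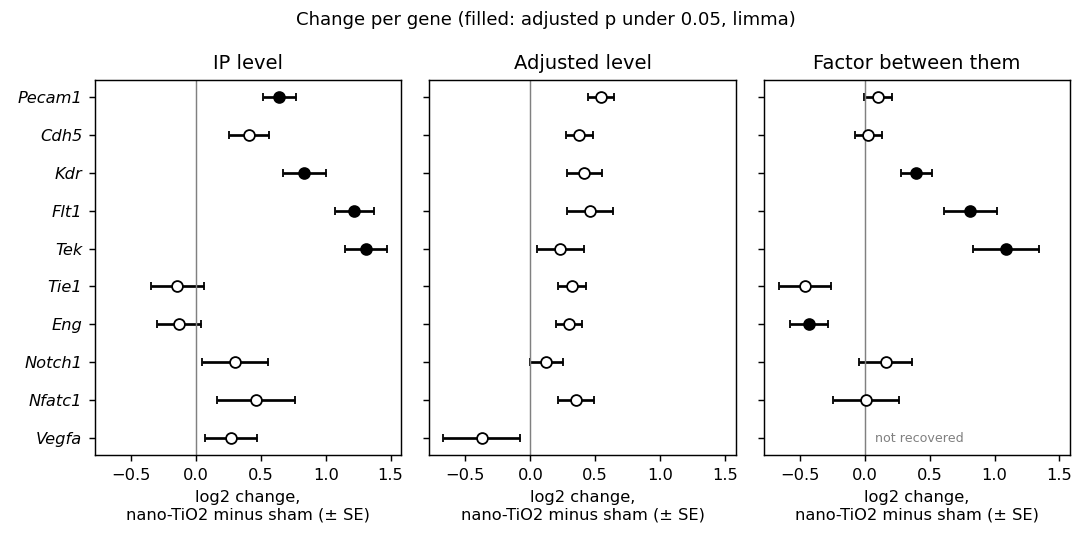
Log2 change of each gene, nano-TiO2 minus sham, in IP level, in the authors' adjusted level and in the factor between them. Points are limma estimates, bars are 1 SE, and filled points have an adjusted p under 0.05. IP level rose in Tek, Flt1, Kdr and Pecam1, no adjusted level was called, and the factor was higher for Tek, Flt1 and Kdr and lower for Eng. Tie1 and Eng lie below 0 in IP level with the deposited scaling and above 0 after quantile normalization or with equal totals, and Vegfa lies below 0 after quantile normalization.

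The authors also deposited adjusted values, which are the normalized values of a gene divided by 1 factor per gene and library and rounded. Its make-up is not stated in the labels or the files. In these values 0 of the 10 genes were called by limma, as were 0 of all 19361 genes tested (0%), while 7 of the 10 and 3592 of all genes had an unadjusted p under 0.05. All 7 were higher in nano-TiO2, as were 16.5% of all genes at that threshold. The lowest adjusted p of the 10 was 0.18. The log2 change was above 0 in 9 of 10 genes, against 69.5% of all genes, with a median of 0.34, against 0.17. Nano-TiO2 libraries were all above sham in 6 of 10, against 19.4% of all genes. The adjusted level also changed more in genes with more windows. In the length groups that hold the 10 genes, from fewer to more windows, median log2 changes were 0.16, 0.24 and 0.31. Nano-TiO2 was all above sham in 20.3%, 26.3% and 32.1% of their genes. With the length trend removed, 7 of 10 genes lay above 0, with a median of 0.08 against -0.01 over all genes. In that fit 2 of the 10 had an unadjusted p under 0.05, as did 2111 of all 19361 genes (limma).

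The largest changes in adjusted level were those of Pecam1, Flt1 and Kdr, and Tek, first in IP level, was not among them. Pecam1 had adjusted values of 1125, 1254 and 1181 in sham against 1670, 1902 and 1630 in nano-TiO2, which did not overlap, and its log2 change of 0.54 ± 0.10 SE was the largest of the 10 (adjusted p = 0.18, limma). Tek, largest in IP level, had 424, 458 and 354 in sham against 374, 552 and 540 in nano-TiO2. Its groups overlapped, with nano-TiO2 replicate 1 below 2 of the sham libraries, and the log2 change was 0.23 ± 0.18 SE (adjusted p = 0.49, limma). Flt1 had 356, 556 and 465 in sham against 529, 661 and 683 in nano-TiO2, with sham replicate 2 above nano-TiO2 replicate 1, and a log2 change of 0.46 ± 0.18 SE (adjusted p = 0.22, limma). Kdr had 969, 1133 and 843 in sham against 1135, 1393 and 1387 in nano-TiO2. These did not overlap, but sham replicate 2 and nano-TiO2 replicate 1 were nearly equal (log2 change 0.41 ± 0.14 SE, adjusted p = 0.19, limma).

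Tie1 and Eng, which overlapped in IP level, did not overlap here. Tie1 had adjusted values of 1748, 2063 and 1672 in sham against 2119, 2353 and 2353 in nano-TiO2 (log2 change 0.32 ± 0.11 SE, adjusted p = 0.19, limma). Eng had 3792, 4370 and 3777 in sham against 4452, 5432 and 4791 in nano-TiO2 (log2 change 0.30 ± 0.099 SE, adjusted p = 0.20, limma). Replicate 2 was the highest sham library in both genes. Cdh5 had 1585, 1736 and 1419 in sham against 1956, 2185 and 1998 in nano-TiO2, again without overlap (log2 change 0.38 ± 0.10 SE, adjusted p = 0.18, limma). Among the endocardial genes, Nfatc1 went from 426, 475 and 403 to 492, 626 and 555 without overlap (log2 change 0.36 ± 0.14 SE, adjusted p = 0.23, limma). Notch1 had 880, 946 and 947 in sham against 846, 1141 and 1056 in nano-TiO2, which overlapped (log2 change 0.12 ± 0.13 SE, adjusted p = 0.62, limma). Vegfa had 148, 98 and 156 in sham against 95, 151 and 72 in nano-TiO2, also overlapping, and was the 1 gene below 0 (log2 change -0.37 ± 0.30 SE, adjusted p = 0.51, limma). Over the fits that leave out 1 library each it ran from -0.66 without nano-TiO2 replicate 2 to -0.13 without nano-TiO2 replicate 3, with -0.58 without sham replicate 2, and it was not called in any.

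The adjusted calls changed without sham replicate 2. With that library left out, 5 of the 10 genes were called as higher (Pecam1, Cdh5, Kdr, Tie1 and Eng, log2 changes 0.37 to 0.59, adjusted p 0.028 to 0.042, limma), where 8.32% of all genes were. Without any other single library 0 of the 10 were called. With weights for library quality, in which sham replicate 2 had the lowest weight (0.37) and nano-TiO2 replicate 3 the highest (4.46), 7 of the 10 were called as higher, against 22.5% of all genes. They were Pecam1, Cdh5, Kdr, Flt1, Tie1, Eng and Nfatc1, and Vegfa was called as lower (log2 change -0.78, adjusted p = 0.043, limma), as were 3.43% of all genes.

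The factor that lies between both levels was the third quantity compared. A high factor means that the adjusted value was divided down from the IP level. It could be recovered for 9 of the 10 genes, all but Vegfa, whose bounds were too wide. By limma it was higher in nano-TiO2 for Tek, Flt1 and Kdr and lower for Eng, that is 4 of 9 genes, while 36.0% of all 13812 genes with a factor were called, 16.8% as higher and 19.3% as lower. The groups did not overlap in these 4 genes, nor in 50.0% of all genes. For Tek the factor was 0.684, 0.548 and 0.677 in sham against 1.61, 1.339 and 1.13 in nano-TiO2, without overlap (log2 change 1.09 ± 0.26 SE, adjusted p = 0.024, limma). For Flt1 it was 0.785, 0.670 and 0.713 in sham against 1.45, 1.12 and 1.25 in nano-TiO2, also without overlap (log2 change 0.81 ± 0.20 SE, adjusted p = 0.024, limma). For Kdr the nano-TiO2 values of 1.12, 1.11 and 1.20 lay above the sham values of 0.928, 0.803 and 0.871 (log2 change 0.40 ± 0.12 SE, adjusted p = 0.031, limma).

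In the other direction, the factor of Eng was 1.17, 1.19 and 1.08 in sham against 0.809, 0.946 and 0.805 in nano-TiO2, which did not overlap (log2 change -0.43 ± 0.14 SE, adjusted p = 0.040, limma). For Tie1 it was 1.28, 1.13 and 1.04 in sham against 0.739, 1.07 and 0.731 in nano-TiO2. Nano-TiO2 replicate 2 fell among the sham libraries, and the change of -0.46 ± 0.20 SE was not called (adjusted p = 0.081, limma). The factor of Pecam1 changed by 0.10 ± 0.11 SE (adjusted p = 0.46), that of Cdh5 by 0.03 ± 0.10 (adjusted p = 0.84), that of Notch1 by 0.16 ± 0.20 (adjusted p = 0.53) and that of Nfatc1 by 0.01 ± 0.25 (adjusted p = 0.98, limma), and in these 4 the groups overlapped. The factor is had from both levels, so its changes are not independent of theirs.

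Factor calls were lost in several fits that leave out 1 library, while the changes kept a like size. With nano-TiO2 replicate 1 or replicate 3 left out, 0 of the 9 genes were called. The log2 change of Tek was then 0.96 and 1.21 (adjusted p = 0.069 and 0.060) and that of Flt1 0.71 and 0.83 (adjusted p = 0.080 and 0.064, limma). No gene of all 13812 was called in these 2 fits, while 5199 and 5610 had an unadjusted p under 0.05. Tek and Flt1, and no other of the 9, were called without sham replicate 1, 2 or 3, where 12.3%, 10.3% and 30.8% of all genes were. Without nano-TiO2 replicate 2 Tek, Flt1, Eng and Tie1 were called, where 34.1% of all genes were. Kdr was not called in any of these 6 fits (log2 change 0.34 to 0.45, adjusted p 0.067 to 0.19, limma). With the trend over length removed Tek was the 1 gene of the 9 called, where 13.7% of all genes were.

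Ratios between genes were read within each library, where the scaling of libraries cancels. The 5 pairs were chosen after the values were seen and carry no test. How often ratios of other gene pairs separate was not counted. The trend over length does not cancel in a ratio of genes with unlike numbers of windows. Per window, the IP level of Tek was 0.137, 0.113 and 0.142 times that of Tie1 in sham and 0.405, 0.308 and 0.369 times in nano-TiO2, so the angiopoietin receptor gained on its co-receptor in every nano-TiO2 library. In adjusted levels the same ratio was 0.253, 0.231 and 0.221 in sham against 0.184, 0.245 and 0.239 in nano-TiO2, and the groups overlapped. Between the VEGF-A receptors, the IP level of Flt1 was 0.235, 0.259 and 0.294 times that of Kdr in sham and 0.368, 0.327 and 0.333 times in nano-TiO2, without overlap. In adjusted levels that ratio averaged 0.314 ± 0.0627 in sham against 0.319 ± 0.00900 in nano-TiO2 (SD, n = 3) and overlapped. Flt1 has 540 windows and Kdr 361. With the length trend removed, their log2 changes in IP level were 0.25 and 0.10, and neither was called.

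The ratio of Eng to Pecam1 was lower in nano-TiO2 in both levels. It was 6.27, 6.90 and 5.36 in sham against 3.28, 4.46 and 3.18 in nano-TiO2 in IP level, and 5.21, 5.39 and 4.95 against 4.12, 4.42 and 4.55 in adjusted level, with no overlap in either. Eng has 161 windows and Pecam1 249. With the length trend removed, their log2 changes were -0.36 and 0.15 in IP level and 0.086 and 0.27 in adjusted level, none of them called. The ratios of Kdr to Pecam1 and of Cdh5 to Pecam1 overlapped in both levels. Together the 10 genes took 0.0397% ± 0.00407 of library reads in sham against 0.0684% ± 0.0164 in nano-TiO2 (SD, n = 3), without overlap. The 4 most abundant genes of the series meanwhile went from 26.0% ± 8.08 to 13.6% ± 5.09 of reads, also without overlap. Of reads outside those 4 genes, the 10 genes took 0.0540% ± 0.00791 in sham against 0.0786% ± 0.0140 in nano-TiO2, and the groups still did not overlap. Of adjusted values they took 0.0451% ± 0.00499 in sham against 0.0580% ± 0.00544 in nano-TiO2. A larger share of reads was common to most genes. With library totals made equal, the median log2 change of all genes was 0.61, and 0.39 when those 4 genes were left aside. How often other sets of genes separate in this way was not counted.

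**Figure D3:**
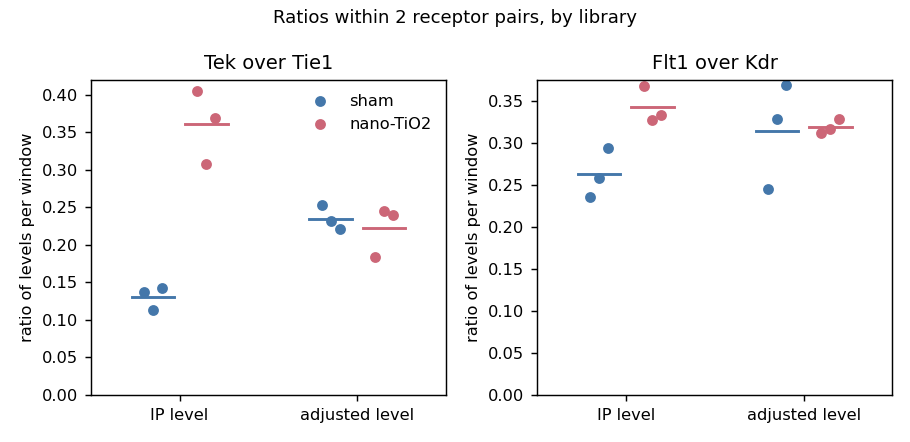
Ratio of levels per window within each library, for Tek over Tie1 and Flt1 over Kdr, in IP level and in adjusted level. Points are libraries and bars are group means of 3. In IP level the 3 nano-TiO2 libraries lie above the 3 sham libraries in both pairs, and in adjusted level the groups overlap.

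Along the genes, IP signal was uneven, and each gene had a profile of its own. Positions are given in nucleotides from the first window, and it was not established whether that is the 5′ or the 3′ side. Windows were joined into bins of 10, each 250 nucleotides wide. Kdr was one-sided, with 76.7% ± 3.95 (SD, n = 3) of its sham reads in the first 25% of its windows and a peak in the bin that starts at 756. In that bin it had 132, 141 and 100 normalized reads in sham against 150, 225 and 275 in nano-TiO2. Bins starting from 4006 to 5256 held almost no reads in any library. Notch1 was as one-sided, with 80.1% ± 2.90 of its sham reads in the first 25%, whereas Tek climbed from the first windows to a peak in the bin that starts at 4251 and had 59.8% ± 3.13 in the last 25%. Cdh5 climbed in the same way, with 59.8% ± 3.21 in the last 25%.

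Pecam1 had 2 separate blocks. The first peaked in the bin that starts at 254, with 189, 215 and 166 normalized reads in sham against 244, 245 and 354 in nano-TiO2, and the second began at 3254. Between them, each bin held fewer than 15 normalized reads in every library. Flt1 had 49.4% ± 3.37 (SD, n = 3) of its sham reads in the first 25% of its windows. It needed 13 of its 54 bins to hold 50% of its reads. The like counts were 11 of 30 in Nfatc1, 6 of 57 in Notch1, 5 of 37 in Kdr and 5 of 25 in Pecam1. They were 5 of 20 in Tie1, 5 of 17 in Eng, 4 of 19 in Tek, 4 of 18 in Vegfa and 4 of 17 in Cdh5. Tie1 had its peak in the bin that starts at 518 and Eng in the bin that starts at 3001, where it had 704, 913 and 654 normalized reads in sham against 529, 735 and 610 in nano-TiO2, which overlap. Nfatc1 peaked in the middle of its windows, in the bin that starts at 3770, and Vegfa late, in the bin that starts at 3511.

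**Figure D4:**
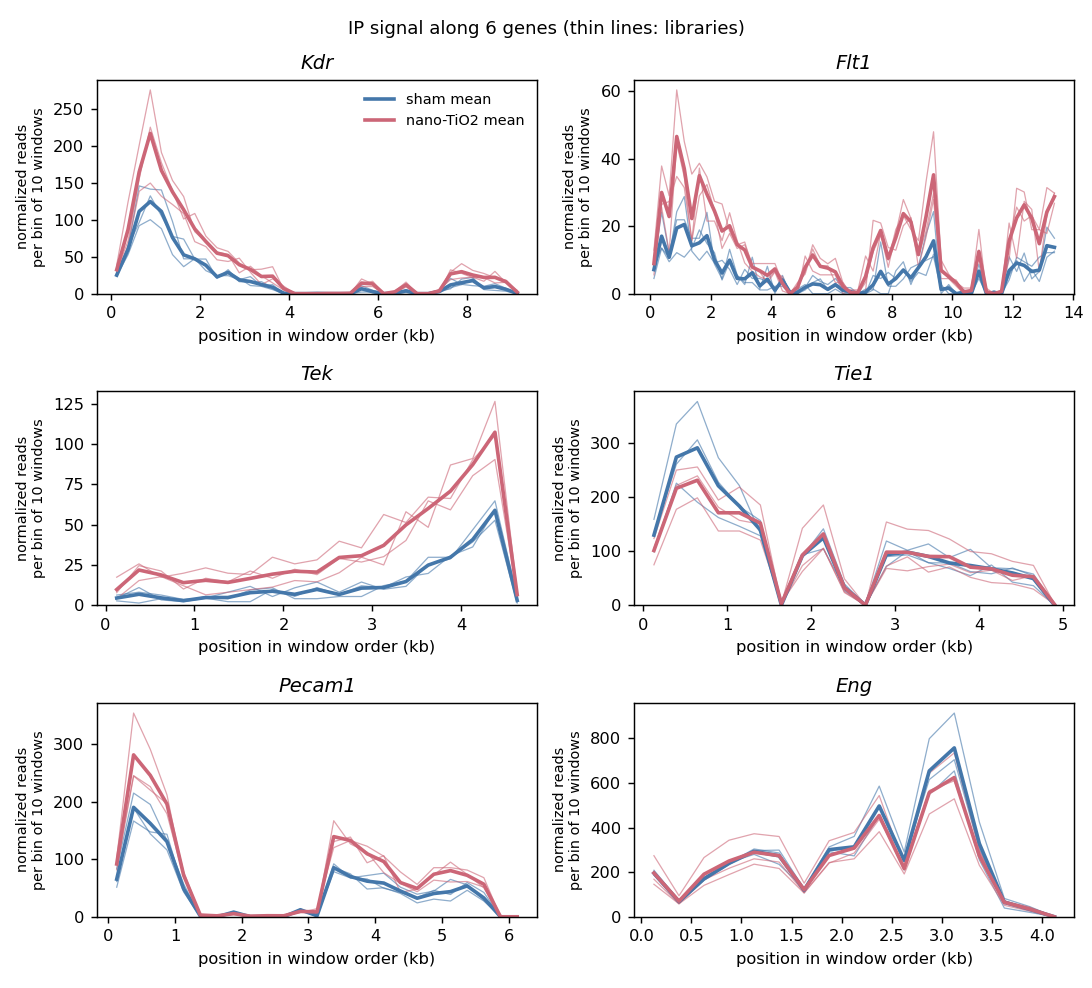
Normalized IP reads per bin of 10 windows along 6 genes, against position in window order in kilobases. Thin lines are libraries and thick lines are group means of 3. Nano-TiO2 libraries lie above sham along most of Kdr, Flt1, Tek and the 2 blocks of Pecam1, and the groups overlap in nearly all bins of Tie1 and Eng.

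Bins called as higher in IP level lay in more than 1 bin of each gene that had any. Whether a rise was even along a gene cannot be read from these calls, because of how bins were admitted to the test. Of 173 bins tested in the 10 genes, 45 were called in IP level by limma, all as higher, where 23.8% of all bins were called and 18.3% as higher. They lay in 13 of 22 tested bins of Kdr, 11 of 23 of Flt1, 11 of 15 of Tek, 7 of 16 of Pecam1 and 3 of 16 of Cdh5. In Tek the called bins ran from the start at 251 to the peak. A bin was tested if it averaged 10 or more over all 6 libraries, so it could pass through nano-TiO2 alone. The bin at 2501 did so, and the number of others among the called bins was not counted. The bin at 2501 had 8.10, 6.57 and 5.41 normalized reads in sham against 29.0, 39.7 and 20.1 in nano-TiO2 (log2 change 1.96 ± 0.40 SE), and the peak bin had 64.8, 59.1 and 52.7 in sham against 90.4, 105 and 126 in nano-TiO2 (log2 change 0.85 ± 0.23 SE). In Tie1, Eng, Notch1, Nfatc1 and Vegfa, 0 of 17, 16, 20, 23 and 5 tested bins were called by limma, and 3 bins, all in Nfatc1, had an unadjusted p under 0.05.

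At the resolution of single windows few could be tested, since a window had to average 10 normalized reads. Of 356 such windows in 7 of the genes, 3 were called by limma, all in Kdr and all as higher, where 11.2% of all windows were called and 3.88% as higher. They start at 756, 881 and 931, all in the peak bin. The window at 931 averaged 8.79 in sham and 21.2 in nano-TiO2, so it reached the minimum of 10 only through nano-TiO2. The window at 881 had 16.2, 14.2 and 12.2 normalized reads in sham against 27.9, 30.6 and 43.5 in nano-TiO2 (log2 change 1.19 ± 0.30 SE, adjusted p = 0.019, limma). The count of windows called as higher was 1, that at 881, without sham replicate 1 or nano-TiO2 replicate 1, where 1.91% and 1.46% of all windows were, and 0 without nano-TiO2 replicate 3, where 1.30% were. Without nano-TiO2 replicate 2, that window and 1 window of Eng, at 151, were called, the latter as lower (log2 change -1.33 ± 0.34 SE, adjusted p = 0.026, limma). Windows of Pecam1 at 1029 and of Cdh5 at 3476 joined it, as higher, with sham replicate 2 left out. In adjusted values 0 of 358 windows were called by limma, against 0.00316% of all windows, and 51 had an unadjusted p under 0.05. All 51 were higher in nano-TiO2, as were 6.98% of all windows at that threshold.

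A further test asked whether signal moved within a gene, comparing each bin's change with that of the rest of the gene. Of 173 bins, 1 was called by limma's diffSplice, against 0.378% of all bins. It lay in Pecam1 in the sparse stretch between the blocks, at the start of 2754, and had 9.89, 13.1 and 13.5 normalized reads in sham against 10.0, 7.45 and 10.5 in nano-TiO2. Those values overlap. Its log2 change minus that of the gene was -1.02 ± 0.23 SE (adjusted p = 0.014, limma). The call was lost without nano-TiO2 replicate 1, nano-TiO2 replicate 2 or sham replicate 2. Without sham replicate 2 a bin of Flt1 at 7505 was called in its place, as higher than its gene (1.83 ± 0.46 SE, adjusted p = 0.047, limma).

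Shares of reads in the first 25%, the last 25% and the peak bin were compared over all 10 genes, 30 shares in all. In 4 of them the groups did not overlap, against 14.5% of the same shares over all 15625 tested genes of at least 40 windows, and with 3 libraries against 3 the exact two-sided permutation test can give no p below 0.1 (adjusted p = 0.64 for these). The share of Tek's reads in its peak bin was 22.0%, 23.6% and 22.0% in sham against 15.0%, 14.2% and 20.8% in nano-TiO2. In Eng the peak share was 15.8%, 17.6% and 16.1% in sham against 14.7%, 14.3% and 15.8% in nano-TiO2, and the groups all but met at 15.8%. In Vegfa the peak share went from 20.7% ± 1.67 to 13.7% ± 0.958 and the share of the first 25% went from 16.1% ± 8.02 to 30.6% ± 4.74 (SD, n = 3), on 78 to 193 reads. Without nano-TiO2 replicate 3, 17 of the 30 shares did not overlap, against 31.4% over all those genes. Without sham replicate 1 or sham replicate 3, 8 did not, where the shares over those genes were 25.0% and 24.5%.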

How the data were processed

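Anti-m6A IP libraries of 3 sham and 3 nano-TiO2 pooled fetal hearts were analysed, with groups and replicate numbers from the sample titles. Before the pull-down, 3 µg of RNA was cut to fragments of about 250 to 350 nucleotides, per the labels' protocols. Input libraries were not used here. The submitters' processing notes list the build GRCm39 and the tools DESeq2 1.34.0, HISAT2 2.2.1 and Salmon 1.5.2, with no role or order. The window counting and its strand setting are not given in the sources used here.

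The authors deposited a normalized signal per window, and every value was a whole number of reads divided by 1 size factor per library (100% of values, within a tolerance of 0.0001). The authors also deposited adjusted values, treated here as a score, which are the normalized values divided by 1 factor per gene and library and rounded. PCR copies cannot be told from separate molecules, so read numbers carry more than counting error.

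Windows were summed per gene, and features (genes, bins or windows) averaging 10 or more were tested with limma 3.58.1 (trend, two-sided, R 4.3.3) on log2(value + 1), with Benjamini-Hochberg adjustment over all features tested and a threshold of 0.05. On that scale changes of low genes are understated. The factor was kept where its bounds were within a relative width of 0.2. Within-gene tests used diffSplice on bins of 10 windows, and shares of reads used exact permutation. On recovered reads, edgeR 4.0.16 and DESeq2 1.42.0 were alternatives. Tables and plots used pandas 2.3.3, NumPy 2.4.6, statsmodels 0.14.6 and matplotlib 3.10.9 under Python 3.11.15. On simulated data, 2-fold changes per gene were called in 22.4% of cases in IP level, 26.9% in adjusted level and 43.3% for the factor. For IP windows and for bins within genes this was 4.48%. For adjusted windows 4-fold changes were called in 16.7%. Each simulation changed only a small part of the features, whereas 36.0% of all genes were called in the real IP level. The adjustment is stricter where fewer features change, so these rates need not hold for the comparisons above. IP windows and bins within genes were simulated with 1 spread for all features, the median over genes. A gene, bin or window without a call is not shown to be unchanged. The simulation of the factor was changed after its first result was seen.

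The 10 genes and all lists were chosen with earlier results of these data known. All 10 genes are named whatever their values, with their peak bins and at most 3 bins or windows past the threshold. The list of other endothelial genes and the lists of cell type markers, fixed by symbol, matched 0 IDs and were not analysed here. Same-numbered libraries of both groups were checked for shared deviations from the group means: Pearson's r across genes, which are not independent replicates, was -0.37, 0.18 and 0.02 in IP level and 0.01, -0.01 and 0.03 in adjusted level. Libraries of unlike number had r from -0.56 (sham replicate 3 with nano-TiO2 replicate 2) to 0.52 (sham replicate 3 with nano-TiO2 replicate 1) in IP level. The numbers were therefore not taken as pairs.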

Additional observations from a re-analysis of the deposited data

How the results depend on the processing

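Of 438 values of single genes under alternatives, 369 kept their sign and their side of the threshold, 25 lost the call, 22 gained one and 22 changed sign. In IP level, Tek was called in all 18 alternatives and Flt1, Kdr and Pecam1 in 17 each, the exception being the removal of the length trend. The count of called genes there was 4, and it was 8 with equal library totals, 1 with the length trend removed, 4 with the replicate block and 4 to 5 with each library left out. Changes of sign were 0.019, 0.35 and 0.13 for Tie1 and 0.18, 0.37 and 0.14 for Eng after quantile normalization, with equal totals and with equal totals that leave aside the 4 most abundant genes, -0.11 for Vegfa after quantile normalization, and -0.70 for Notch1 and -0.15 for Nfatc1 with the length trend removed. In adjusted level the count was 0, with 8 under quality weights, 0 with the replicate block and 0 to 5 with each library left out. Signs turned for Notch1 with TMM scaling (-0.039), after quantile normalization (-0.0043) and with the length trend removed (-0.23), and for Tek with the length trend removed (-0.0020). For the factor the count was 4, with 2 when no trend of the spread over the mean was fitted, 1 with the length trend removed, 2 with the replicate block (over all genes 1793 calls against 4979) and 0 to 4 with each library left out. Its signs turned with the length trend removed for Pecam1 (-0.085), Kdr (-0.033), Notch1 (-0.55) and Nfatc1 (-0.30). With each library left out, they also turned for Cdh5 (-0.020 to 0.10, below 0 without nano-TiO2 replicate 2 or 3), Notch1 (-0.016 to 0.31, below 0 without sham replicate 3) and Nfatc1 (-0.29 to 0.20, below 0 without sham replicate 3 or nano-TiO2 replicate 2). The cause of these changes was not tested.

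Called windows in IP level numbered 3, with 11 at a mean of at least 1, 0 at a mean of at least 50, 45 for bins of 10 windows, 2 with the replicate block and 0 to 3 with each library left out. Called bins within genes numbered 1, with 0 for single windows, 2 at a mean of at least 1 (1 in Pecam1 and 1 in Tie1, both as higher, while the Pecam1 bin at 2754 was not called), 0 at a mean of at least 50, 0 with the replicate block and 0 to 1 with each library left out. Shares whose groups did not overlap numbered 4, with 2 for a single peak window and 4 to 17 with each library left out. The replicate block, in which the numbers are treated as pairs that the check did not bear out, changed no other count. Equal totals that leave aside those 4 genes, the length trend of the adjusted level and factor, the factor without a trend and the normalized sum over the recovered factor were chosen after the data were seen. Depth limits the low genes most, above all Vegfa, whose 78 to 193 reads per library fell in 50 to 87 of 171 windows.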

Other observations

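The strand of 7 of the 10 genes was read from the table of promoters used here, and the side of the windows on which reads lay was set beside it after both were seen, as a description with no test. Of the genes on the minus strand, Kdr, Notch1, Tie1 and Flt1 had 76.7%, 80.1%, 51.3% and 49.4% of their sham reads in the first 25% of windows, and Vegfa had 16.1%. Of those on the plus strand, Tek and Eng had 8.54% and 14.9% there. In the last 25% of windows the shares were 8.53% in Kdr, 1.26% in Notch1, 13.2% in Tie1 and 22.3% in Flt1, and 59.8% in Tek, 24.4% in Eng and 58.7% in Vegfa. How window order relates to strand was not established.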
